A study of Mus musculus with 6 samples.

Results

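Binding of S-peptide tagged Bapx1 in the E12.5 mouse vertebral column was described at 2815 deposited summits, with 1 ChIP library and 1 control library out of 6 libraries in the series. For every summit, the tags within 250 bp were recounted in each library, and control tags were multiplied by the ratio of the library totals. The sites were ranked by their recounted excess, which is ChIP tags minus scaled control tags, per 10000000 ChIP tags. The 100 sites with the largest excess are called the best sites. A site was called supported if the exact 95% lower bound of its ChIP to control ratio was above 2, and 534 of the 2815 summits met this rule.

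The series compares where Bapx1 and Sox9 bind in the vertebral column and where overexpressed V5-tagged Bapx1 binds in NIH3T3 cells, a mouse fibroblast line. The ChIP embryos carried the S-peptide and a calmodulin binding peptide at the N-terminus of the endogenous Bapx1 protein, and the mice were of the CD1 strain. The control was made with the same anti S-Peptide antibody on wildtype embryos, although its title calls it an input. Vertebral columns of about 100 embryos were pooled for each library, 2 mg of chromatin was used, and the libraries were amplified in 14 rounds. Since each library is 1 pool, no spread between embryos or preparations could be measured. Tags of a ChIP do not report transcripts, so the tissue could not be checked against marker genes here.

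Bapx1 (Nkx3-2) is a homeodomain protein of the NK family. It acts mainly as a transcriptional repressor downstream of Sonic hedgehog in the sclerotome, the part of the somite that forms the vertebrae, where it promotes early cartilage and holds back maturation of the chondrocytes. Loss of the gene leaves defects of the axial skeleton and the spleen. NK homeodomain proteins recognise a short core sequence, which was searched for here as TGAGTG or TAAGTG on either strand and is called the motif.

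The sequences of sites with a large excess show the kinds of summit that the values below refer to. Each is the plus strand of mm9 from 50 bp before to 50 bp after the summit. In the first 5, chosen because they are distal sites with the motif, capitals mark the motif on either strand. The coordinates are chr9:71124312-71124412 in an intron of Aldh1a2, chr11:8734296-8734396 in an intron of Pkd1l1, chr5:12468071-12468171 in an intron of Sema3d, chr10:24678666-24678766 upstream of Arg1 and chr5:103816841-103816941 upstream of Ptpn13.
Aldh1a2 intron: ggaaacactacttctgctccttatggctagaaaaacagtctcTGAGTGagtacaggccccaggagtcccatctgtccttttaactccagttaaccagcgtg
Pkd1l1 intron: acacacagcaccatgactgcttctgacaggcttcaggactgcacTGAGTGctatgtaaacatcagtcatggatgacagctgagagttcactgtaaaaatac
Sema3d intron: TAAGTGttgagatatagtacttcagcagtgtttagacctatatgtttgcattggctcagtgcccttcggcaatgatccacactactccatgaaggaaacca
Arg1 upstream: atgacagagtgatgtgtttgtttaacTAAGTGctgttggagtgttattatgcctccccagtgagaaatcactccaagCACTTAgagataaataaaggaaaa
Ptpn13 upstream: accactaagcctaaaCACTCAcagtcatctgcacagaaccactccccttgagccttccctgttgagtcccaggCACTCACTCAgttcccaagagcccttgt

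The site with the largest excess of all held no motif and is shown for that reason. It lies at chr12:37520419-37520519, between genes.
Meox2 upstream: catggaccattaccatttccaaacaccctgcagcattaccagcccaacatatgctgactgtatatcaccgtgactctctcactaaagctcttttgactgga

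At the sites closest to Ehhadh (chr16:21797150-21797250) and Mlana (chr19:29755262-29755362) a word recurs within the window, which sets them apart from most of the best sites. The longest word found at 3 places at least 10 bases apart had 17 bp at the former and 12 bp at the latter.
Ehhadh upstream: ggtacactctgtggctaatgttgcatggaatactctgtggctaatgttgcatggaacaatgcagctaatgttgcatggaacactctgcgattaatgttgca
Mlana upstream: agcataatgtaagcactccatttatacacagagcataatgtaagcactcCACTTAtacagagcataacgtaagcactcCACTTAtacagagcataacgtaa

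In promoters the summits often carried the word CCAAT, the element that the factor NF-Y recognises. It is in capitals below on either strand together with the motif, at Kif1b (chr4:148681925-148682025), Yipf4 (chr17:74888716-74888816) and Map3k3 (chr11:105945791-105945891).
Kif1b promoter: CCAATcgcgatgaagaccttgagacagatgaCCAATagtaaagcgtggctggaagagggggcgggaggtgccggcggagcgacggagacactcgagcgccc
Yipf4 promoter: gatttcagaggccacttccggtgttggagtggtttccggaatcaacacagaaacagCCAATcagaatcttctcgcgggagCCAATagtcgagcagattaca
Map3k3 promoter: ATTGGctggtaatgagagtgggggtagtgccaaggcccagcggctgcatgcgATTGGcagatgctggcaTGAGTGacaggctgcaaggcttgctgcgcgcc

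The ChIP library held 24853758 tags on chromosomes 1 to 19, X and Y and the control held 20702403, each tag spanning 35 bp and none repeating a position and strand. One control tag was therefore worth 1.2005 ChIP tags. Over all 2815 summits the windows held 77286 ChIP tags and 18262 control tags, which is 3.53 times the scaled control (95% interval 3.47 to 3.58, exact binomial). Intervals below are of the same kind (Clopper-Pearson) and cover counting error only. Since the summits were called from these tags, the ratio and the ranks describe the list and do not test it. Over the best sites the ratio was 7.99 (interval 7.41 to 8.62), with 49 to 170 ChIP tags and 2 to 29 control tags per site.

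The false discovery rate in the deposited list, which comes from calling peaks with ChIP and control exchanged, was high throughout. Its median was 61.1% over all summits (lowest 11.8%), 53.9% at supported sites and 20.5% at the best sites, and at the Ehhadh site, which ranked 4 by excess, it was 100%. The words best and supported refer to the recount alone.

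The rule for a supported site was met by 534 summits, or 19% of those deposited. It was met by 0.142% of 5630 windows placed 5 kb to either side of the summits and by 0.252% of 45961 windows at protein-coding transcription start sites (TSS), which is 116 windows. Of the 44575 TSS windows with no summit within 5 kb, 21 met it. Over all 4770388 windows of 501 bp in the genome that held a tag, 0.0364% met the rule for ChIP over control. With the libraries exchanged, 0.0413% met it for control over ChIP. Of the 1737 genome windows called for ChIP over control, 494 overlapped a deposited peak and 1243 did not. The genome as a whole therefore held slightly more windows in favour of the control than of the ChIP. At the threshold, Pik3c2b had 45 ChIP and 9 control tags with a lower bound of 2.01 and was called, while Fgfr2 had 48 and 10 with a lower bound of 1.997 and was not. Between rank 100 (Prdm1, 59 and 12 tags) and the next site (48 and 3 tags) the excess went from 17.94 to 17.86 tags per 10000000.

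**Figure D1:**
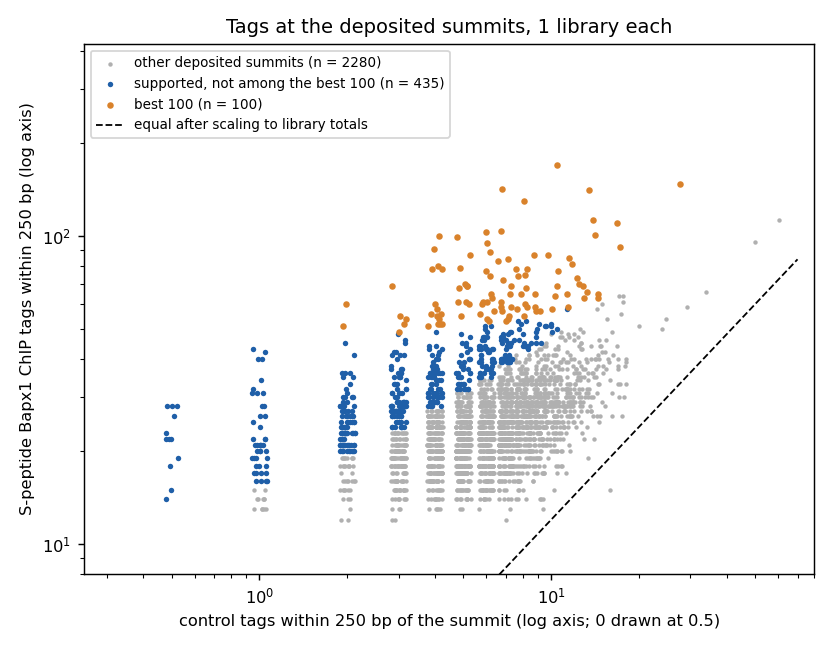
Each point is 1 of the 2815 deposited summits, with control tags within 250 bp on the x axis and ChIP tags on the y axis, both as raw tags on log axes and with points spread slightly sideways. The best 100 sites (orange) reach 49 to 170 ChIP tags, supported sites outside them are blue, other summits are grey, and the dashed line marks equal levels after scaling.

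The site with the largest excess lay between genes at chr12:37520209-37520833, 314658 bp upstream of Meox2, a homeobox gene of the somites. It held 170 ChIP tags and 11 control tags, a ratio of 12.9 (interval 7.02 to 26.3). The next site, 141997 bp downstream of the start of Psmg1, which encodes a proteasome assembly chaperone, held 142 and 7 tags. Neither held the motif within 50 bp of its summit. The site 9283 bp upstream of Ehhadh, an enzyme of peroxisomal fat oxidation, held 130 and 8 tags and no motif either. The other intergenic sites of this size lay 194949 bp upstream of Gnb2l1 with 100 and 4 tags, 17099 bp upstream of Mlana with 99 and 5 tags, and 56208 bp upstream of Hist1h2al with 95 and 6 tags. Distances on this scale do not show that the nearest gene is the one regulated.

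Among sites inside genes, an intron of Adamts12, a metalloprotease that cleaves cartilage matrix proteins, held 147 ChIP tags. It also held 29 control tags, the most of any best site, so that its ratio was 4.22 (interval 2.82 to 6.52). Introns of Aldh1a2 and Pkd1l1 held 103 and 6 tags and 104 and 7 tags, with ratios of 14.3 (interval 6.35 to 39.9) and 12.4 (interval 5.80 to 31.5). Aldh1a2 makes retinoic acid, and Pkd1l1 encodes a ciliary protein of left-right patterning. Each of these 3 introns held 1 motif near the summit. Sema3d, a secreted guidance protein, had 91 and 4 tags in an intron with 1 motif, and Mapkap1, a subunit of the mTORC2 kinase complex, had 89 and 6 tags with none. A site 42156 bp upstream of Rxra, a receptor that retinoids bind, held 80 and 4 tags and 1 motif. All of these 6 sites were supported, and their control tags ranged from 4 to 29.

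The promoters with the largest excess belonged to Tasp1, the protease that cleaves MLL proteins, with 141 and 13 tags, to Kif1b, a kinesin motor, with 113 and 14, and to Setd4, a methyltransferase gene, with 110 and 17. Their ratios were 9.03 (interval 5.12 to 17.4), 6.72 (interval 3.85 to 12.7) and 5.39 (interval 3.22 to 9.59). Zfp719, a zinc finger gene, followed with a ratio of 6.01 (interval 3.42 to 11.4) over 14 control tags. Ppp6c, a protein phosphatase subunit, had 84 and 7 tags. The summits of these 5 lay within 174 bp of the TSS, and the motif was present at Tasp1 and Ppp6c.

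At least 2 motifs were present at 5.12% of the other 2715 summits. Of the best sites, 5 held at least 2 motifs, which is a like share of 5%. These were the sites nearest to Mlana, a melanosome protein gene, and Arg1, the arginase of the urea cycle, with 78 and 4 tags at 31440 bp upstream. The others were Ptpn13, a tyrosine phosphatase gene, with 3 motifs of which 1 pair overlaps and 55 and 3 tags, Nkd1, an inhibitor of Wnt signalling, with 55 and 4 tags in an intron, and Fnbp1l, with 55 and 8 tags in an intron of Bcar3. At Nkd1, as at Mlana and Ehhadh, a word recurred at 3 places in the window, and it had 14 bp. Such recurring words of at least 10 bp were present at 3.00% of the best sites (interval 0.62 to 8.52), against 2.0% of the flanks of the best sites at 500 bp. At the other 2715 summits the share was a like 3.13%, against 3.57% of their flanks.

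**Figure D2:**
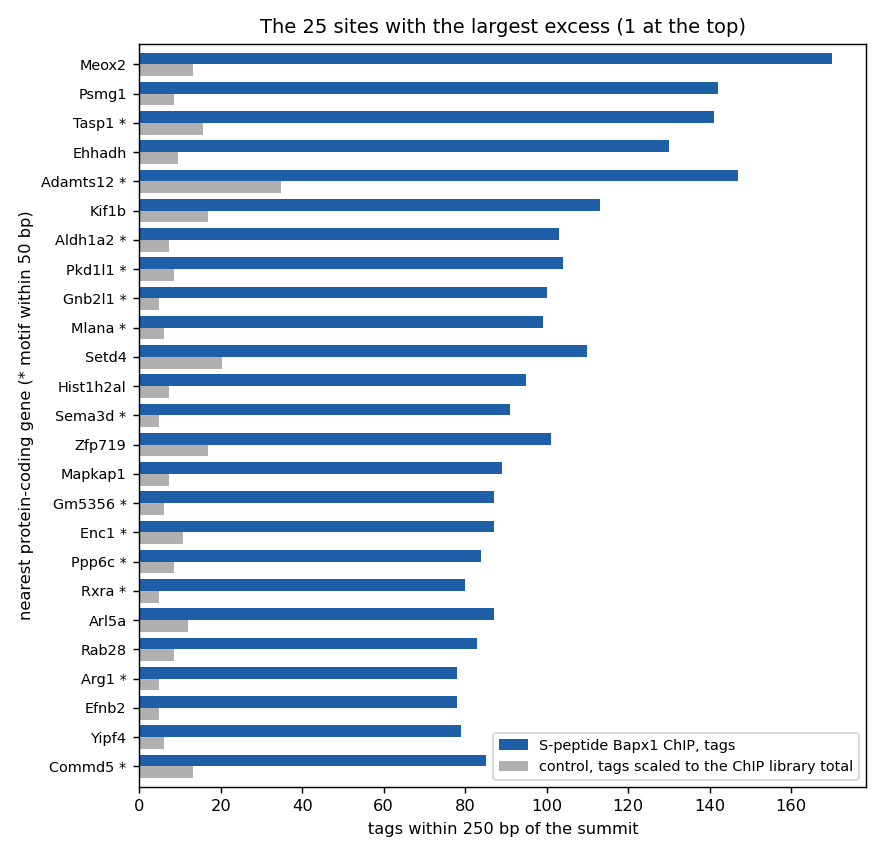
Bars give the ChIP tags (blue) and the control tags scaled to the ChIP library total (grey) within 250 bp of the summit for the 25 sites with the largest excess, named by the nearest protein-coding gene, with a star where a motif lies within 50 bp. ChIP tags run from 170 at the Meox2 site to 78 at the Arg1 and Efnb2 sites.

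The remaining sites of the first 25 had Gm5356, Enc1, Arl5a, Rab28, Efnb2, Yipf4 and Commd5 as nearest genes, with 78 to 87 ChIP tags and 4 to 11 control tags. Their distances differed widely, as the Rab28 site lay 619683 bp from the TSS and the Commd5 site 23 bp upstream of it. Of all 25, 13 held the motif. Further down the list, the sites whose nearest gene is Sox6, Tbx18, Fzd9 or Hmga2 were picked out after their values were seen, and those of Sox6, Tbx18 and Hmga2 lie beyond the 100 kb used for the gene lists below. An intron of Sox6, a cofactor of Sox9 in cartilage, held 51 and 2 tags at 330221 bp from the TSS. A site 168273 bp from Tbx18, a T-box gene that keeps the anterior part of the somite distinct, held 58 and 10 tags. Fzd9, a Wnt receptor, had 58 and 4 tags at 13684 bp upstream, and Hmga2, a chromatin protein of growth, had 63 and 13 tags in an intron.

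Tags on both strands contributed at every best site. The rarer strand held at least 32.7% of the ChIP tags and at least 18 tags at each of the best sites, and the minus strand held 49.3% in all. The plus strand 5' ends peaked upstream of the summit and those of the minus strand downstream, and the offset with the most pairs of 5' ends was 143 bp. The plot of 5' ends shows no such arrangement for control tags.

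**Figure D3:**
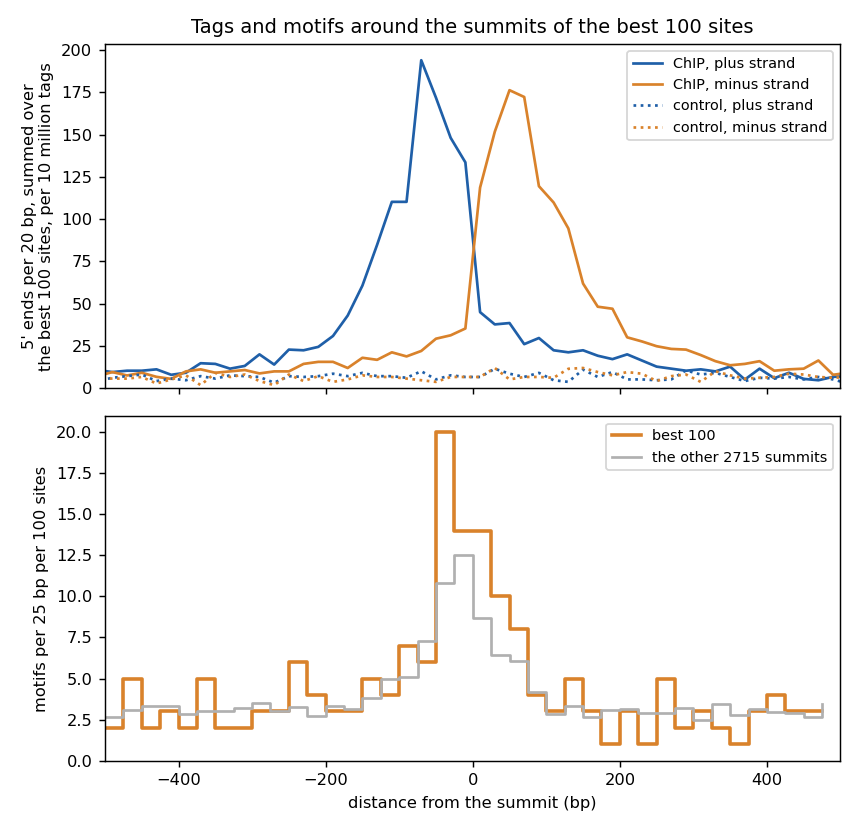
The upper panel sums the 5' ends of tags over the best 100 sites in steps of 20 bp against the distance from the summit, per 10000000 tags of each library (solid ChIP, dotted control). The lower panel counts motifs per 25 bp and per 100 sites, which in the 25 bp from -50 to -25 bp reach 20 at the best sites and 10.8 at the other 2715 summits.

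The motif was present within 50 bp of 51 of the 100 best summits (51.0%, interval 40.8 to 61.1). Of these, 26 held TGAGTG alone, 24 held TAAGTG alone and 1 held both. In the flanks, windows of the same length centred 500 bp to either side, 9.50% held it (interval 5.82 to 14.4). At the next 400 sites, down to rank 500, the share was 42.0% (interval 37.1 to 47.0), at ranks 501 to 1000 31.4%, at ranks 1001 to 2000 29.4% and at ranks 2001 to 2815 25.8% (interval 22.8 to 28.9), while the flanks stayed between 8.25% and 11.6% in these groups. The intervals of the best sites and of the last group do not overlap. The presence of the motif was not used in the ranking. At the best sites the nearest motif lay a median of 22.5 bp from the summit, against 18.5 bp at the other summits.

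By distance, 32 of the best sites lay within 5 kb of a TSS of any transcript (32%, interval 23.0 to 42.1), against 27.1% of the other 2715 summits (interval 25.4 to 28.8), which lies inside the interval of the best sites. The share within 1 kb of a protein-coding TSS was 23.0% at the best sites (interval 15.2 to 32.5) and 14.3% at the others (interval 12.995 to 15.7), and these intervals overlap. Those 23 sites are the promoter class, and 19 of them had their summit within 200 bp of the TSS. A further 34 sites lay inside genes beyond 5 kb of a protein-coding TSS, 31 lay between genes beyond 25 kb, 10 between genes at 5 to 25 kb and 2 at 1 to 5 kb. Ratios were 10.5 (interval 5.32 to 23.5) in the 2 sites at 1 to 5 kb and ran in the larger classes from 7.25 (interval 6.26 to 8.44) in promoters and 7.35 (interval 6.47 to 8.38) inside genes to 9.19 (interval 7.98 to 10.6) between genes beyond 25 kb. The motif was present at 9 of the 23 promoters (39.1%, interval 19.7 to 61.5), 18 of the 34 sites inside genes (52.9%, interval 35.1 to 70.2) and 16 of the 31 distant intergenic sites (51.6%, interval 33.1 to 69.8). Between genes at 5 to 25 kb it was present at 7 of 10 sites (70%, interval 34.8 to 93.3), and at 1 to 5 kb at 1 of 2.

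**Figure D4:**
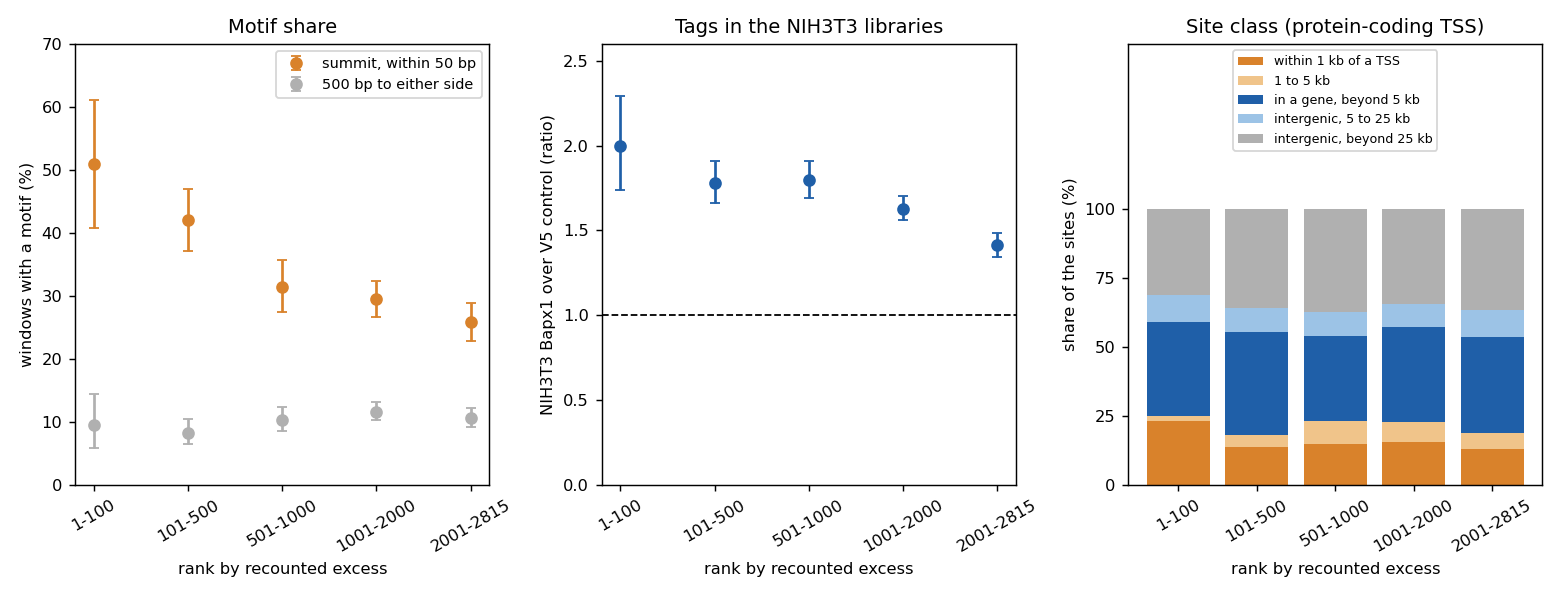
The left panel gives the percent of summits (orange) and of flanks (grey) with the motif, the middle panel the ratio of Bapx1 to V5 control tags in NIH3T3 cells, and the right panel the share of each site class, all against the rank by recounted excess. Bars on the points are exact binomial 95% intervals, and the motif share goes from 51.0% to 25.8% and the NIH3T3 ratio from 1.998 to 1.41 between the first and the last group.

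Promoter summits had a sequence composition of their own. Their median GC content over the 501 bp windows was 61.5% at the 23 best promoters, against 48.3% at the other 77 best sites. CCAAT on either strand was present in 33 of the 65 supported promoters within 50 bp of the summit (50.8%, interval 38.1 to 63.4). It was present in 27.2% of the 346 promoter summits that were not supported (interval 22.6 to 32.2), in 10.8% of the flanks of supported promoters, and in 17.9% of windows at all 45961 protein-coding TSS (interval 17.6 to 18.3), taken 55 bp upstream as at the median promoter summit. The Kif1b, Yipf4 and Map3k3 windows printed above each held it at 2 places. At supported sites beyond 1 kb it was present in 11.7% (interval 8.96 to 15.0), against 12.7% of their flanks. The motif itself was present at 47.7% of supported promoters (interval 35.1 to 60.5), against 7.37% of all TSS windows at the same offset. CCGGAAG, a word that ETS factors recognise, was present at 13.8% of supported promoters (interval 6.53 to 24.66), at a like share of 12.7% of promoter summits that were not supported (interval 9.39 to 16.7), and in 5.65% of all TSS windows. These words were chosen after the sequences of the summits had been compared with their flanks, so their shares are a description.

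The control library was also raised at promoters. At the 23 best promoters it held 1.87 times the tags of its own surroundings at 5 to 10 kb, against 1.41 times at the other best sites. Whether this bears on the excess in the ChIP was not tested.

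Away from promoters, AGTGTT was present at 26.0% of the best summits (interval 16.6 to 37.2) and 5.19% of their flanks (interval 2.27 to 9.98). It shares bases with the motif where that reads TAAGTGTT, as at Sema3d. At the 285 supported distal sites without the motif it was still present at 17.9% (interval 13.6 to 22.9), against 5.61% of their flanks (interval 3.87 to 7.83). AAACAC, which reads GTGTTT on the other strand, was present at 18.2% of them (interval 13.9 to 23.2), against 8.07% of the flanks, and the Meox2 site is an example. Both words were chosen after the values were seen.

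The NIH3T3 libraries were made with an anti-V5 antibody from cells that overexpressed V5-tagged Bapx1 and from control cells transfected with an empty vector. These libraries therefore share neither tag, antibody nor tissue with the vertebral column libraries. At the best sites they held 504 distinct Bapx1 tags and 353 control tags, a ratio of 1.998 (interval 1.74 to 2.30). At 5 kb to either side of the best sites the ratio was 0.894 (interval 0.785 to 1.02). The ratio was 1.78 at the next 400 sites, 1.80 at ranks 501 to 1000, 1.63 at ranks 1001 to 2000 and 1.41 at ranks 2001 to 2815 (interval 1.34 to 1.49). Among the best sites the ratio was 1.16 at the 34 inside genes (interval 0.887 to 1.51) and 1.55 at the 31 between genes beyond 25 kb (interval 1.16 to 2.08), against 1.34 and 1.27 over all deposited summits of these classes. At the 10 best intergenic sites at 5 to 25 kb, which include the Mlana site, it was 4.02 (interval 2.64 to 6.26), and 1.95 at the other 9 without it (interval 1.17 to 3.29), against 1.69 over all summits of this class (interval 1.54 to 1.85). It was 2.91 at the 23 best promoters (interval 2.27 to 3.76), against 2.83 at the 346 promoter summits that were not supported (interval 2.66 to 3.02) and 1.41 at protein-coding TSS with no summit within 5 kb (interval 1.404 to 1.42). At the 77 best sites beyond 1 kb the ratio was 1.66 (interval 1.397 to 1.96). The Mlana site alone held 50 and 3 of these tags, and without it the ratio of the other 76 was 1.399 (interval 1.17 to 1.67), against 1.39 over all 2404 summits beyond 1 kb (interval 1.35 to 1.43).

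Single sites rested on few NIH3T3 tags. A lower bound above 1 was reached at 13 of the 100 best sites, against 357 of all 2815 summits, which is a like share. Of the 13, 10 were among the 23 best promoters, against 165 of all 411 promoter summits. They include Tasp1 (16 and 8 tags), Yipf4 (14 and 4), Map3k3 (16 and 5), Zfp142 (18 and 3) and Cdca3 (18 and 0). The Meox2 site held 7 and 2 tags, the Aldh1a2 intron 2 and 2 and the Adamts12 intron 1 and 7. At supported sites with the motif the ratio was 1.94 (interval 1.76 to 2.13) and at those without it 1.56 (interval 1.44 to 1.69). The sites with the motif include the Mlana site with its 50 and 3 tags. Promoters made up 14.4% of the sites with the motif and 10.7% of those without it.

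In a few stretches the ChIP library exceeded the control over kilobases rather than at single summits. The strongest lay between Tubb3, a neuronal tubulin gene, and Def8. In 7288 bp at chr8:125950187-125957474 the list has 7 peaks, of which 6 were supported and 3 were among the best sites. This stretch held 668 ChIP and 99 control tags (ratio 5.62, interval 4.54 to 7.01), while the ratio was 1.06 (interval 0.853 to 1.33) over the kilobases to its left and 0.932 (interval 0.753 to 1.15) to its right. Both NIH3T3 libraries held 0 tags in it, where a count of 0 allows up to 3, against 56 and 79 tags to the left. Why the ChIP was raised over this stretch was not tested. Its 3 best sites were kept in the counts of best sites given above. Of 240605 bins of 10 kb with at least 30 control tags, the bin with this stretch had the highest ratio at 4.93, the next had 2.67, and the median was 0.998. At 45 summits the surroundings at 5 to 10 kb had a ratio above 1.5, and 3 of the best sites and 13 of the supported sites were among them. The 3 best sites were those nearest to Tubb3 (rank 26), Arhgef3 (rank 28) and Def8 (rank 96), while the site of rank 53 in the stretch, with a ratio of 1.09 in its surroundings, was not among them. Without the 3 the ratio of the best sites was 8.04 and their motif share 51.5%. Bins in the opposite direction went further from 1, with 84 ChIP and 718 control tags at chr7:38970001-38980000 (ratio 0.0975) and ratios of 0.102 to 0.144 in 4 bins between chr10:22000001 and 22080000. Near Gm4694, 3 supported sites held 87 and 9 tags. There the surroundings at 5 to 10 kb held 5.04 ChIP and 1.47 control tags per window. Windows 5 kb to either side of all summits held means of 5.97 and 4.85, so the control was low at Gm4694 and the ChIP was not raised.

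**Figure D5:**
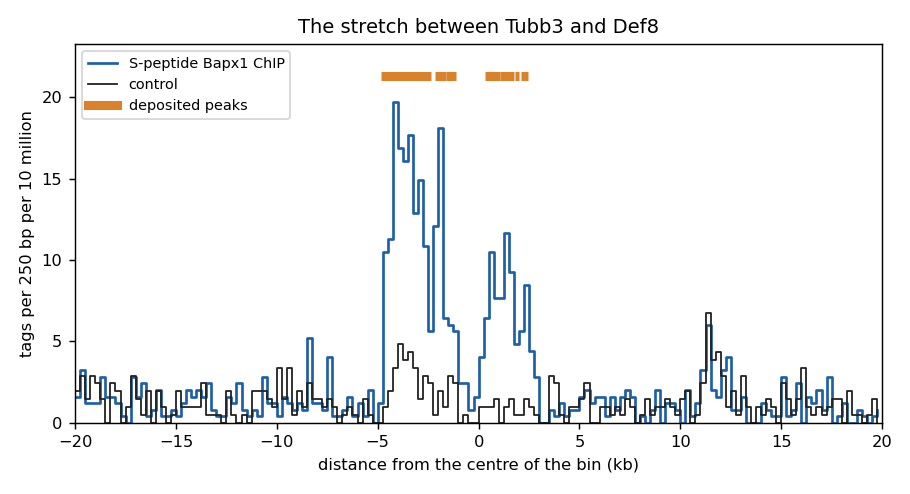
Tags per 250 bp and per 10000000 tags of each library are plotted against the distance in kb from the centre of the 10 kb bin with the highest ratio, with ChIP in blue, control in black and the 7 deposited peaks as orange bars. The ChIP is raised over the whole 7.29 kb, apart from a gap, with edges at both ends.

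Genes of skeletal development were counted if a supported site had their protein-coding TSS as the nearest and within 100 kb. Of 22219 protein-coding genes, 347 had such a site (1.56%), and of 208 annotated genes on the skeletal lists 19 had one (9.13%). With the lists of neural, muscle, endothelial and blood genes added, 21 of 261 had one (8.05%). All lists were chosen with earlier results of these data known, so these shares and the values below are a description and no test. Genes on the skeletal lists lie in wider spaces. The measure was the stretch, within 100 kb of the TSS, in which a gene has the nearest TSS. Its median was 114 kb for skeletal list genes and 46.7 kb for all genes, and supported sites per Mb of it were 0.709 and 0.232. Counting every TSS within 100 kb of a supported site gave 23 of the skeletal list genes (11.1%) and 992 of all genes (4.46%).

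Among components of the Wnt pathway 5 of 31 genes had a supported site. Sfrp1, a secreted antagonist of Wnt ligands, held 39 and 4 tags in an intron with 2 motifs (ratio 8.12, interval 2.93 to 31.3). The coreceptor Lrp5 held 37 and 5 tags in an intron, the ligand Wnt11 had 26 and 3 tags at 57421 bp upstream, the antagonist Dkk3 had 24 and 3 tags in an intron, and the nuclear effector Tcf7l2 had 20 and 1 tags. Of 16 Hedgehog pathway genes, the Shh coreceptor genes Gas1 (27 and 3 tags) and Cdon (20 and 2 tags) had one, at 3468 bp and 1548 bp from the TSS. Both proteins help cells receive Sonic hedgehog, which is known to induce Bapx1 in the sclerotome.

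Of 22 chondrogenic transcription factors, Sox8 (34 and 4 tags, 20060 bp from the TSS) and Sox6 had a supported site. Besides its intronic site above, Sox6 held 20 and 2 tags in an annotated UTR 273 bp from a TSS, with 1 motif. Of 23 cartilage matrix genes 1 had one, the small proteoglycan gene Fmod with 31 and 3 tags at 30592 bp upstream. Of 18 regulators of hypertrophy and growth, the ubiquitin ligase gene Wwp2 (37 and 6 tags), the cell cycle inhibitor gene Cdkn1a (36 and 6 tags) and the deacetylase gene Hdac4 (25 and 3 tags) had one. Of 18 osteoblast genes 2 had one, among them the collagen gene Col1a2 (20 and 2 tags, no motif).

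The Notch effector gene Hes1 (39 and 7 tags) was the 1 of 20 somite patterning genes, Bmp5 (33 and 2 tags in an intron) the 1 of 30 BMP and TGF-beta signals, Etv5 (20 and 1 tags) the 1 of 16 FGF pathway genes and Pknox2 (43 and 8 tags) the 1 of 15 TALE homeobox genes. Lists of other cell types gave 2 of 19 annotated neural genes, Tubb3 in the stretch described above and Nkx6-1 (35 and 3 tags, 2 motifs), 0 of 17 muscle genes and 0 of 17 endothelial and blood genes. These sites were of moderate size, and some rested on 1 to 3 control tags. The support rule favours sites where the control count is low. Over supported sites outside the best sites, the control held 0.804 times its own level at 5 to 10 kb. At summits that were not supported it held 1.44 times that level, and at the best sites 1.51 times. Apart from Tubb3 no list gene was the nearest gene within 100 kb of a best site, and the largest excess of the others was that of Sfrp1 at 13.8 tags per 10000000.

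At the TSS of Nkx3-2 itself the ChIP and the control held 9 tags each, and the nearest summit held 17 and 4 tags and was not supported. A group of 5 peaks lay 617046 to 702752 bp from that TSS, on the side of Rab28. The strongest, at chr5:41479018-41479519, held 83 and 7 tags (ratio 9.88, interval 4.59 to 25.3) and no motif, and the other 4 held 25 to 33 ChIP tags and 7 to 10 control tags and were not supported.

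The study tested regions in luciferase reporter assays, some of them also in gel shift assays, and the deposited summits nearest to 6 of them were counted in the same way. The site near the first, in an intron of Scube1, a secreted EGF-domain protein gene, ranked 55 with 60 and 5 tags (ratio 9.996, interval 4.05 to 31.9) and no motif, its summit lying 275 bp from the centre of the region. The summit inside Dnm3, whose nearest coding TSS is that of 4930558K02Rik, had 30 and 4 tags, was supported too and held 2 motifs. The summits at Dcaf15 (40 and 8 tags), Synj2 (30 and 9), Slc39a11 (26 and 5) and Cyb5r3 (31 and 9) held 1 motif each, with lower bounds of 1.92, 1.29, 1.64 and 1.33, and were not supported. The study reported that every region tested by gel shift bound Bapx1 and that most tested regions raised the reporter above its basal level. The support rule counts tags in the embryo libraries, which is another measure than those assays.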

How the data were processed

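Chromatin of E12.5 vertebral columns was precipitated and sequenced, and the authors deposited uniquely mapped tags of 35 bp on mm9, from which counts were made here, and a MACS peak list for the ChIP against the wildtype control (p cutoff of 1e-05). The deposited peak list also holds the authors' score, fold enrichment ratio and false discovery rate in percent, of which none was used for ranking. Positions repeated on a strand were counted once in the NIH3T3 libraries. Sox9 and IgG libraries and the NIH3T3 peak list were not used here.

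Tags with their midpoint within 250 bp of each summit were counted (14 pairs of neighbouring windows overlap over all summits, 3 among supported sites and 0 among the best, so sums count some tags again), control tags were scaled to library totals, and exact binomial 95% intervals were computed for each ratio. With 1 library a side there is no replicate and no p-value. The counting was tested on simulated data. Genes were assigned by the nearest protein-coding TSS of the GENCODE annotation of NCBIM37, and list members by a limit of 100 kb. The members and lists were chosen with earlier results of these data known. Named were the 25 sites with the largest excess, the first 5 of each main class and of the sites with 2 motifs, list genes with a supported site, Nkx3-2 and the assayed regions. A few items that this rule names are not reported here. Sites on chromosome 18 are shown without sequence. Alternatives covered the window, the scaling, the ranking, the support threshold, the TSS distance, the motif and the NIH3T3 window. Python 3.11.15, numpy 2.4.6, pandas 2.3.3, scipy 1.17.1 and pysam 0.24.0 were used.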

Additional observations from a re-analysis of the deposited data

How the results depend on the processing

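No paired analysis was possible because each condition has 1 library, and for the same reason no replicate could be left out. Of 69 alternatives to the main values, 53 moved them by less than their interval or by less than 1.5 times for counts, and 16 moved them more. With 100 bp windows the ratio was 5.42 over all summits and 13.6 at the best sites, with 500 bp windows 2.56 and 5.07, and within the deposited peak limits 4.54 over all summits. Supported sites numbered 296 with 500 bp windows, 2313 with a lower bound above 1 and 150 with a lower bound above 3. Ranking by the lower bound shared 60 of the best sites and gave an NIH3T3 ratio of 2.45, the 50 best sites gave 2.48, and 100 bp windows in NIH3T3 gave 2.30. A limit of 1 kb in place of 5 kb put 23 of the best sites at a TSS. Searching for TGAGTG without regard to TAAGTG found it at 27 of the 100 best sites. Genes of all lists with a site, those of other cell types included, numbered 62 (23.8%, all genes 6.39%) with a lower bound above 1 and 71 (27.2%, all genes 7.77%) with all deposited summits. The cause was not tested. At 120 named sites, 667 of 702 recomputed ratios stayed within their interval, 35 moved and 0 fell below 1. The named sites had been chosen for a large excess or as supported in the same tags, so these counts are no test of them. Leaving out sites in raised surroundings, and the Mlana site in NIH3T3, were alternatives chosen after seeing the data. A single library on each side limits every value here to counting error.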

Other observations

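A class of summits of low rank differed in sequence from the best sites. Runs of at least 20 bp in which purines and pyrimidines alternate were present at 2 of the 100 best sites, at 4 of the 400 sites ranked next, 3.20% of ranks 501 to 1000, 5.80% of ranks 1001 to 2000 and 8.96% of ranks 2001 to 2815, against 2.65% of the flanks of all summits. The word ACACATGC was present at 5.53% of unsupported summits beyond 1 kb of a TSS, at 0.88% of their flanks and at 1.71% of supported summits beyond 1 kb. Both features were chosen after the values were seen.

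Some supported sites had no control tag at all. There were 12 of these, with 14 to 28 ChIP tags, and none was among the best sites. The exact 95% lower bounds of their ratios ran from 2.76 to 5.92. Near 9230019H11Rik, 3 of them held 26, 19 and 14 ChIP tags, with the windows of the first and the last overlapping, and both NIH3T3 libraries held 0 tags there. Within 50 bp of each of these 3 summits a word recurred at 3 places, with 31, 28 and 19 bp. Another of the 12 had Gm12887 as the nearest protein-coding gene, 504825 bp away. At this site the control was close to 0 in the surroundings as well, at 0.10 tags per window of 501 bp against 5.16 in the ChIP. At Kank1, which encodes a regulator of the actin cytoskeleton, 3 supported sites within 1 gene region held 75 and 4 tags.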
